A study of Mus musculus with 5 samples.

Results

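The nuclear genes for the subunits of the mitochondrial respiratory chain were followed in total bone marrow of mice after a single dose of ionizing radiation. They were taken by symbol, as the probes named for genes that begin Ndufa, Ndufb, Ndufc, Ndufs, Ndufv, Sdh, Uqcr, Cox4, Cox5, Cox6, Cox7, Cox8 or Atp5, with pseudogenes left out. This gave 90 of the 19057 genes with a named probe. Of these, 78 encode subunits, with 34 in complex I, 4 in complex II, 7 in complex III, 17 in complex IV and 16 in complex V. The other 12 share the prefixes and encode assembly factors, which help build complexes I and II without staying in them. Ndufa4 carries a complex I name and was counted in complex IV, where its protein is now placed.

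The mice were male BALB/c, an inbred strain, 7 to 8 weeks old. One group was sham-irradiated and stands for 0 days after irradiation (0 DAI). The others received total body gamma-radiation of 4 Gy from a cobalt source and were taken at 3, 7, 11 and 21 DAI. Each of the 5 time points has 1 array, so no value has a replicate error and no test can be run. Genes are called by the size of the difference only. The methods give 6 to 8 mice for each time to collect enough cells, and in another place describe RNA of 4 irradiated mice and 1 sham-irradiated mouse. Whole marrow holds many cell types, so fewer cells of a type and less RNA per cell cannot be told apart.

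The respiratory chain lies in the inner mitochondrial membrane and passes electrons from NADH and succinate to oxygen. Complex I takes electrons from NADH and complex II from succinate, both hand them to ubiquinone, complex III passes them to cytochrome c, and complex IV reduces oxygen to water. Complexes I, III and IV pump protons, and complex V, the ATP synthase, makes ATP from the proton gradient. Core membrane subunits of complexes I, III, IV and V are encoded by mitochondrial DNA, and they are described apart from the nuclear genes. Dividing marrow precursors draw on this chain, while mature neutrophils hold few mitochondria and red cells lose theirs as they mature.

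Each signal is the background-subtracted intensity of the brightest probe of a gene, on a linear scale. Signals under a floor of 64 were raised to it, and a gene has a ratio where at least 1 of its 2 signals was above the floor. The mean over all 45281 probes was 535.7 on every array, between 29.8% and 30.5% of probes were above the floor, and the 99th percentile of signal lay between 10175 and 10753. The 4 irradiated arrays nevertheless sat slightly above the 0 DAI array over genes as a whole. The median log2 ratio to 0 DAI of all genes was 0.12, 0.11, 0.12 and 0.17 at 3, 7, 11 and 21 DAI, and changes are read against these values. Several lists of cell type markers differed strongly between the arrays. Of the measured erythroid markers, 4 of 9 were at least 2-fold lower at 3 DAI and 8 of 9 at 21 DAI, and at 3 DAI 4 of 7 B cell markers were lower and 1, the precursor marker Vpreb1, was higher. At 3 DAI, 6 of 9 stroma and bone markers, 5 of 7 macrophage markers and 5 of 5 megakaryocyte markers were at least 2-fold higher. The 2 measured adipocyte markers, Adipoq and Lpl, were also 2-fold higher then. Of 4 T and NK cell markers with a ratio at 3 DAI, 1, Prf1, was 2-fold lower. All 11 neutrophil markers were above the floor, and none was 2-fold different at 3 DAI. At 7 DAI, Vpreb1 and Igll1 were 2-fold higher and Blk and Cd72 lower among B cell markers, and Cd3g and Prf1 were lower among T and NK cell markers. On the same array, C1qb, C1qc and Mrc1 were higher among macrophage markers, Cxcr2 was higher among neutrophil markers, and Pf4 and Ppbp were lower among megakaryocyte markers. The part of these shifts in the values below was not tested.

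Signal was above the floor for 82 of the 90 genes on at least 1 array and for 80 on all 5. Of the 78 subunits, 71 were above it on at least 1 array and 69 on all 5. The 8 genes under the floor on every array were Cox4i2, Cox7b2, Cox8b, Cox8c, Ndufaf6, Ndufs1, Sdha and Uqcrfs1, and they have no ratio. Cox4i2 and Cox8b are tissue-restricted isoforms, of lung and of heart and skeletal muscle, and Cox7b2 and Cox8c are testis isoforms. Ndufs1, Sdha and Uqcrfs1 encode central redox subunits of complexes I, II and III, so a probe under the floor says only that this probe gave no signal. Cox7a1 and Ndufb11 were above the floor on some arrays only. At the other end, 22 of the 90 lay among the brightest 1% of probes on at least 1 array, where the scale may be compressed. The genes Atp5g1, Cox7c, Cox8a, Ndufa4l2, Ndufb1, Ndufb4b, Ndufb4c, Ndufs5 and Uqcrb had no named probe and were not analysed here.

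Few of these genes changed 2-fold at any time. At 3 DAI, 1 of 82 genes with a ratio was at least 2-fold higher, against 5.56% of all genes, and 0 were 2-fold lower, against 4.19%. At 7 DAI, 0 of 81 were higher, against 4.09%, and 1 was lower, against 3.4%. At 11 DAI, 1 of 81 was higher, against 6% of all genes, and 0 were lower, against 5.21%. At 21 DAI, 0 of 82 were higher, against 2.56%, and 0 were lower, against 3.69%. The genes called were Cox6a2 at 3 DAI, Ndufb11 at 7 DAI and the assembly factor Ndufaf7 at 11 DAI. In each direction and at each time, the share of members called was below that of all genes. All genes were not matched to the members for signal level, and its part in these shares was not tested.

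**Figure D1:**
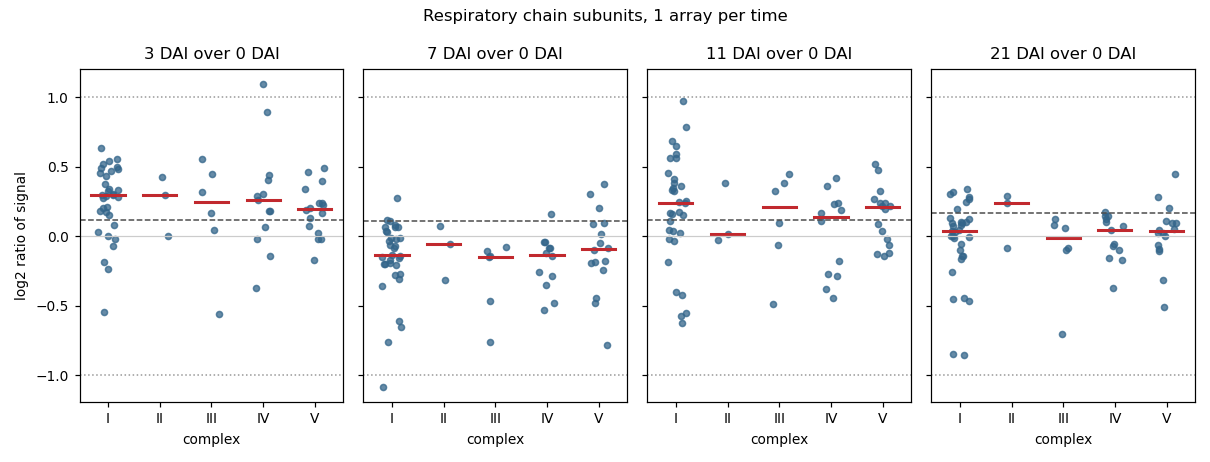
The log2 ratio of signal to 0 DAI is plotted for each subunit with a ratio, by complex (horizontal axis) and time (panel), with 1 array per time. Red bars are the medians of the complexes, the dashed line is the median of all genes and dotted lines mark 2-fold. Nearly all points lie inside the dotted lines, and at 7 DAI the medians of all 5 complexes lie below the dashed line.

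Smaller differences were more common, though their shares were mostly below those of all genes. At 3 DAI, 5 of 82 genes were at least 1.5-fold higher (all genes 16.5%) and 0 were 1.5-fold lower (10.7%). At 7 DAI, 1 of 81 was 1.5-fold higher (15.2%) and 7 were 1.5-fold lower (8.25%). At 11 DAI, 8 of 81 were higher by that size (18.2%) and 2 were lower (12.5%). At 21 DAI, 1 of 82 was higher (14.2%) and 3 were lower (8.02%). Only the 7 genes lower at 7 DAI, at 8.64% of those with a ratio, reached the share of all genes, and that share lay close to it.

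The subunits as a group moved by small amounts. At 11 DAI they lay on both sides of 0 DAI, 49 above and 21 below, with ratios from -0.63 to 0.98. In log2 ratios to 0 DAI, their median stood at 0.26 on the 3 DAI array, -0.13 on that of 7 DAI, then 0.18 (11 DAI) and 0.04 (21 DAI). Set against the median of all genes at the same time, the subunits differed by +0.15 at 3 DAI and by -0.24 at 7 DAI. The same difference came to +0.07 at 11 DAI and -0.12 at 21 DAI. Above the median of all genes were 51 of 71 subunits on the 3 DAI array, 7 of 70 on the 7 DAI array, 40 of 70 on the 11 DAI array and 13 of 71 on the 21 DAI array. At 7 DAI the quartiles of the subunits were -0.27 and -0.01, while those of all genes were -0.17 and 0.41. So the upper quartile of the subunits lay under the median of all genes at that time. With a pseudocount of 50 in place of the floor, which gives every gene a ratio, the 21 DAI difference turned to 0.02 and the 7 DAI one shrank to -0.11. No other alternative turned the direction at any of the 4 times.

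By complex, the medians lay between 0.08 (complex V) and 0.18 (complex I) above that of all genes at 3 DAI, and between 0.17 (complex II) and 0.26 (complex III) below it at 7 DAI. The 7 DAI sizes moved with the processing, as complex II came to -0.02 with the pseudocount, and complexes III and IV to -0.58 (3 subunits) and -0.46 (5 subunits) without the members among the brightest 1% of probes. At 11 DAI the differences were 0.13, -0.10, 0.10, 0.02 and 0.09 for complexes I to V. Of these, those of complexes II, IV and V changed direction with the processing. Without the members among the brightest 1% of probes, complex IV had -0.39 (5 subunits) and complex V -0.10 (8 subunits), and with a baseline made from the remaining irradiated arrays, complex II had 0.12.

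**Figure D2:**
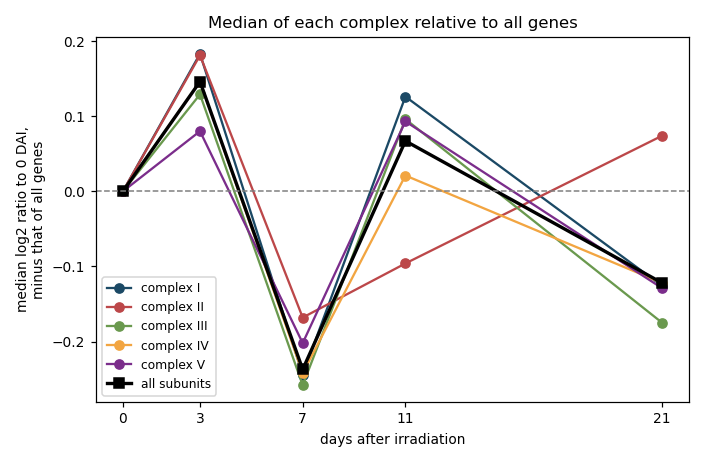
The median log2 ratio to 0 DAI of each complex, minus that of all genes, is drawn against days after irradiation, with 0 DAI at 0 by construction and no error bars, as each time has 1 array. All 5 complexes lie above 0 at 3 DAI and below 0 at 7 DAI, and only complex II, with 3 measured subunits, lies below 0 at 11 DAI and above it at 21 DAI. Both of its values turned with another baseline, to 0.12 and -0.01, and complexes IV (-0.39) and V (-0.10) turned at 11 DAI without their brightest members. With the pseudocount, complexes I and V turned at 21 DAI, to 0.03 and 0.03.

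Setting the irradiated arrays against one another leaves the 0 DAI array out. At 7 DAI, 66 of 71 subunits were lower than at 3 DAI, as were 4474 of all 8471 genes, and the median log2 ratio of 7 over 3 DAI was -0.37 for the subunits and -0.03 for all genes. At 11 DAI, 59 of 70 subunits were higher than at 7 DAI, as were 52.4% of all genes, with a median of 0.31 for the subunits and 0.04 for all genes. At 21 DAI, 50 of 71 subunits were lower than at 11 DAI, as were 3878 of all 8338 genes, with medians of -0.15 for the subunits and 0.05 for all genes. Neighbouring comparisons share an array, so the 3 steps are not independent of each other. By the 1.5-fold size, 18 of 82 members were lower at 7 than at 3 DAI (all genes 15.3%) and 0 were higher (17.2%). At 11 over 7 DAI, 18 of 81 were higher (17.3%) and 0 were lower (19.2%). At 21 over 11 DAI, 0 of 82 were higher (17.1%) and 8 were lower (13.9%).

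The array that held the highest or the lowest signal of a gene shows the same pattern without ratios. Of the 69 subunits above the floor on all 5 arrays, 34 were highest at 3 DAI and 22 at 11 DAI, and 0 were highest at 7 DAI. The lowest signal was at 7 DAI for 36 of them and at 3 DAI for 0. Of the 7129 genes above the floor on all arrays, 23.5% were highest and 19.7% lowest at 7 DAI, and 20.5% were highest at 3 DAI, where 1280 were lowest. At 11 DAI, 31.9% of the subunits and 27.7% of all genes were highest, which are close shares. The range from lowest to highest array was narrow. Its median was 1.39-fold for the subunits and 1.71-fold for all genes, which were not matched to the subunits for signal level. It reached 2-fold for 4 of 69 subunits (5.8%) and for 31.7% of all genes. These 4 were Cox6a2, Ndufab1, Ndufb5 and Ndufa5. The flattest was Atp5h, the d subunit of the ATP synthase stalk, with signals of 5213, 5137, 4916, 4982 and 5406 at 0, 3, 7, 11 and 21 DAI, a range of 1.10-fold.

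**Figure D3:**
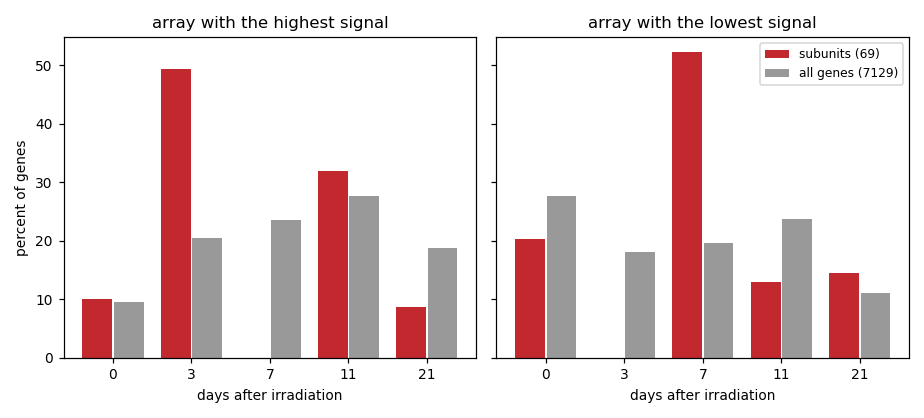
Bars give the percent of genes whose highest (left) or lowest (right) signal was on the array of each time, for 69 subunits and for 7129 genes above the floor on all 5 arrays. No subunit had its highest signal at 7 DAI or its lowest at 3 DAI, where the bars of the subunits are absent.

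In complex I, which is built of an NADH-oxidizing N module, a ubiquinone-reducing Q module and a proton-pumping membrane arm, the parts differed most at 11 DAI. By brightest probe, all 7 measured subunits of the N module and all 7 of the Q module exceeded 0 DAI at 3 and 11 DAI. Of all genes, 60.0% and 59.1% did so. At 3 DAI another probe of Ndufs4 gave -0.035 and one of Ndufa5 -0.039, and at 11 DAI another of Ndufv3 gave -0.070. The remaining probes of Ndufs4 and Ndufv3 gave values above 0 there. The Q module had a median log2 ratio of 0.41 at 11 DAI and the N module one of 0.24, with 0.12 for all genes. The 19 subunits of the membrane arm had a median of 0.11 at that time and spread between -0.63 and 0.98, with 57.9% of them above 0, close to the share of all genes.

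Ndufs7, an iron-sulfur core subunit of the Q module, was the highest of complex I at 3 and 7 DAI. Its signals were 3584, 5572, 4345, 6189 and 4426 at 0, 3, 7, 11 and 21 DAI, with log2 ratios of 0.64, 0.28, 0.79 and 0.30. All 4 irradiated arrays thus lay above 0 DAI, with 3 and 11 DAI the highest. Ndufa9, an accessory subunit of the same module, had signals of 4042, 5887, 4243, 6504 and 5053, and its ratio at 11 DAI was 0.69. Ndufa5, another accessory subunit there, had signals of 2926, 3964, 2628, 4422 and 2152, with its highest value at 11 DAI and its lowest at 21 DAI. Its second probe gave 0.53 at 11 DAI, where the brightest gave 0.60. At 3 DAI the second probe gave -0.04 and the brightest 0.44.

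Ndufab1, the mitochondrial acyl carrier protein, which is a complex I subunit and also serves mitochondrial fatty acid synthesis, had the highest ratio of all subunits at 11 DAI. Its signals were 3386, 4388, 3472, 6665 and 3167, a 1.97-fold higher value at 11 than at 0 DAI, and the other 4 arrays lay well below that of 11 DAI. At 11 DAI the brightest probe gave a log2 ratio of 0.98 and 2 others gave 0.73 and 0.49. The remaining probe was under the floor at 0 DAI and gave at least 1.03. At 21 DAI the brightest probe gave -0.10, and 2 of the others gave -0.46 and -0.42.

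Some other membrane arm subunits were low on at least 1 irradiated array. Ndufa3, a small accessory subunit, had signals of 8190, 8075, 5199, 5309 and 4544, so 0 and 3 DAI were high and the 3 later arrays low. Its log2 ratios were -0.66, -0.63 and -0.85 at 7, 11 and 21 DAI, and a second probe gave -0.51, -0.49 and -0.74. Ndufb5 was low on 1 array only and otherwise followed the common order, with signals of 1461, 1800, 863, 1624 and 1464 and a ratio of -0.76 at 7 DAI. Ndufb11 had signals of 136, 93.0, 58.6, 90.9 and 74.9, highest at 0 DAI. As its 7 DAI signal was under the floor, it was at least 2.12-fold lower there, and its second probe was under the floor on all arrays. Ndufs4, an accessory subunit of the N module, was the highest of complex I at 21 DAI by its brightest probe, with a ratio of 0.34. Its other probes gave 0.01, 0.37 and 0.003.

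**Figure D4:**
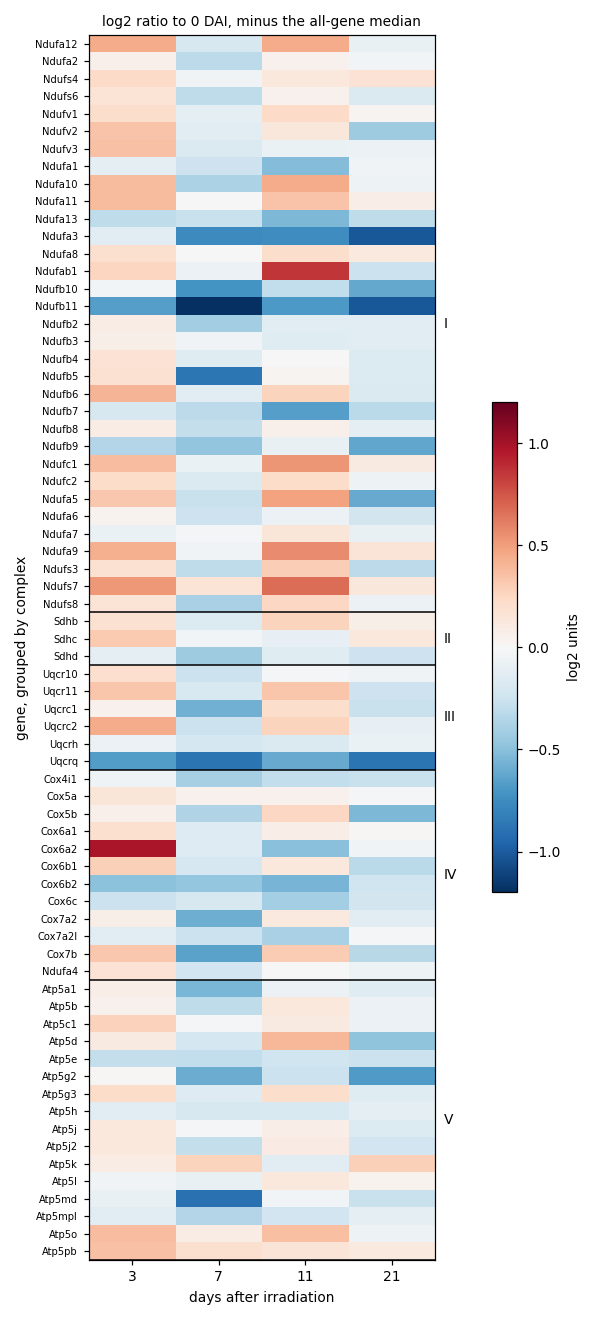
Each row is a subunit with a ratio at all 4 times, grouped by complex (right) and by module within it, and each column a time after irradiation, with 1 array each. Color gives the log2 ratio to 0 DAI minus the median of all genes at that time, red for above and blue for below. The 7 DAI column is mostly blue, and Ndufab1 at 11 DAI and Cox6a2 at 3 DAI are the darkest red cells.

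The promoters of 4 of these complex I genes are shown because they stand at the ends of the range at 11 DAI, together with Cox6a1, a complex IV gene that holds 2 of the motifs searched. Each is the window from 250 bases before to 50 after the annotated start, from RefSeq on the build GRCm38.p6, printed along the gene's own strand. Ndufab1 is at chr7:122101799-122102098 (minus strand), Ndufs7 at chr10:80249199-80249498 (plus), Ndufa9 at chr6:126849095-126849394 (minus), Ndufa3 at chr7:3617123-3617422 (plus) and Cox6a1 at chr5:115348909-115349208 (minus). Capitals mark matches to 3 motifs known from promoters of nuclear genes for mitochondrial proteins, or to their reverse complements.
Ndufab1: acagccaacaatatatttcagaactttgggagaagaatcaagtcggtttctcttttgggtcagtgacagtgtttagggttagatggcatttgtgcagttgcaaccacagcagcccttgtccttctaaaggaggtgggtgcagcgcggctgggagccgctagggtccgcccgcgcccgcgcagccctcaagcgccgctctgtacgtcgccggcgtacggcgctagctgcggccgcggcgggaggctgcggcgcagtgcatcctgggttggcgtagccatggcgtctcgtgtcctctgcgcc
Ndufs7: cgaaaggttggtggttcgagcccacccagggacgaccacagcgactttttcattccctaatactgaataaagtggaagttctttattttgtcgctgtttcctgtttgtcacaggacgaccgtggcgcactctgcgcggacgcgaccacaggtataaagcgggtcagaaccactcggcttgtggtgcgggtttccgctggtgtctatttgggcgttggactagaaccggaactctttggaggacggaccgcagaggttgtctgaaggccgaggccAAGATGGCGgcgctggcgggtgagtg
Ndufa9: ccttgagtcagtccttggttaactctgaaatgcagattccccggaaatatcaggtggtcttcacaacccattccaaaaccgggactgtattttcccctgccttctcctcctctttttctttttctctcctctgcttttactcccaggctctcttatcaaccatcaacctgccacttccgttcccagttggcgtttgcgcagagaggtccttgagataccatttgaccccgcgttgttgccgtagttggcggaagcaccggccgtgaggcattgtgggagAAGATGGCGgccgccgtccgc
Ndufa3: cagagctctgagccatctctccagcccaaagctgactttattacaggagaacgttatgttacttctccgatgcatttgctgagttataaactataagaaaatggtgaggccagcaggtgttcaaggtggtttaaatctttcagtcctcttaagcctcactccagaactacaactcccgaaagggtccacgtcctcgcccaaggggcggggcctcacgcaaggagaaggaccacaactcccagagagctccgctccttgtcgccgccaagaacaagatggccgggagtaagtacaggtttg
Cox6a1: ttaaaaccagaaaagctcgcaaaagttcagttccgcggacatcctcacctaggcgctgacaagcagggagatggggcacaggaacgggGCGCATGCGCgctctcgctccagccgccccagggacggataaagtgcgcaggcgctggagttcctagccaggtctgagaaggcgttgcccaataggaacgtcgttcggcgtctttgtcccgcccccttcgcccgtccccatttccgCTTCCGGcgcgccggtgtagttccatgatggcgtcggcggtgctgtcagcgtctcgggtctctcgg

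The motifs were CCGGAAG, the core bound by ETS factors such as GABP, GCGCATGCG, bound by NRF1, and AAGATGGCG, bound by YY1. They were searched as exact letters on both strands, and matches of the palindromic NRF1 motif that overlap on opposite strands were counted as 1. The ETS motif stood in 16 of 70 subunit windows (22.9%) and in 8.86% of all 32851 windows of the same length. The NRF1 motif stood in 8 of the 70 (11.4%) and in 1.75% of all windows, and the YY1 motif in 7 of the 70 (10%) and in 1.40% of all. The 70 windows belong to 65 of the 78 subunit genes. Ndufs7 and Ndufa9, both high at 11 DAI, each held the YY1 letters just after the start, and Ndufab1 and Ndufa3, at opposite ends of the range, held none of the 3. A match of letters is a description and not a binding site.

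In complex II, succinate dehydrogenase, 3 of 4 subunits were measured. Sdhc, a membrane anchor, had signals of 2184, 2939, 2305, 2214 and 2675, with 3 DAI the highest. Sdhb, the iron-sulfur protein, had signals of 1657, 2036, 1593, 2159 and 1956, with 3 and 11 DAI the highest and 7 DAI the lowest. Sdhd, the other membrane anchor, had signals of 996, 999.8, 802, 976 and 941, and 7 DAI stood apart as low. None reached 1.5-fold at any time.

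In complex III, the cytochrome bc1 complex, all 6 measured subunits with the Uqcr prefix were below 0 DAI at 7 DAI. Of all 8256 genes with a ratio, 3261 were below it. The log2 ratios of the 6 had a median of -0.15. Cyc1, a subunit of the complex with another prefix, was above 0 DAI at 7 DAI, with a ratio of 0.34. Uqcrq, a small subunit, was the lowest of the complex at every time. Its signals were 1480, 1005, 872, 1054 and 907, so all irradiated arrays lay below 0 DAI, and the ratios were -0.56, -0.76, -0.49 and -0.71. Its second probe was under the floor. Uqcrc2, a core protein, had signals of 6595, 9717, 5963, 8619 and 6888 and a ratio of 0.56 at 3 DAI, the highest of the 6 there. Uqcr11, a small subunit, had ratios of 0.45 at 3 and at 11 DAI and -0.08 at 7 DAI. Uqcr10, another small subunit, was the highest of the 6 at 21 DAI by its brightest probe, with a ratio of 0.12. Its second probe gave -0.02. Uqcrc1, the other core protein, had a ratio of -0.47 at 7 DAI, with signals of 3257 at 7 DAI and 4495 at 0 DAI.

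Complex IV, cytochrome c oxidase, held the one subunit that was 2-fold higher. Cox6a2, the isoform of heart and skeletal muscle, had signals of 765, 1639, 743, 587 and 834. The 3 DAI array stood apart, and the other 4 lay between 587 and 834. Its log2 ratio was 1.10 at 3 DAI, or 2.14-fold, then -0.04, -0.38 and 0.12. Under scaling to a common median, the ratio at 3 DAI was 0.99 and thus just short of the size rule. Cox6a1, the isoform found in most tissues, had signals of 12633, 15617, 12265, 14427 and 14273 and a ratio of 0.31 at 3 DAI.

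Cox7a1, also an isoform of heart and skeletal muscle, had signals of 47.2, 119, 52.3, 39.5 and 67.4, near the floor, and was at least 1.86-fold higher at 3 DAI than at 0 DAI. Cox8b, of the same tissues, was under the floor on all arrays. Of 16 skeletal muscle markers with a named probe, 3 were above the floor on any array and 0 were 2-fold higher at 3 DAI, and their summed signal was 741 at 3 DAI and 760 at 0 DAI. Ckm, Acta1, Myh1 and Myh4, which define skeletal muscle, were near 0 on every array, with signals of 17.8 or less. Tnni2, a fast muscle troponin, was detected, with signals of 408, 407, 264, 129 and 206, and was 2-fold lower at 11 DAI, where Cox6a2 was also lowest. Mylpf, a fast muscle myosin light chain, had signals of 200.4, 123, 186, 238 and 122. Stroma and bone markers summed to 15727 at 3 DAI and 1966 at 0 DAI, and macrophage markers to 9138 and 3843. Megakaryocyte markers summed to 9225 at 3 DAI and 2392 at 0 DAI, and adipocyte markers to 4259 and 835. The part of these 4 lists in the Cox6a2 value was not tested.

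The other complex IV isoforms showed smaller differences. Cox4i1, the form of most tissues, had signals of 14274, 14954, 11727, 12645 and 13341. Cox6b1, the form of most tissues, had a ratio of 0.40 at 3 DAI, while Cox6b2, the testis form, had -0.37 there and -0.44 at 11 DAI. Cox7a2, the form of most tissues, had signals of 936, 1062, 671, 1100 and 965, with 7 DAI the low array. Cox7a2l, a factor of supercomplexes in which chain complexes join, had ratios of -0.02, -0.14, -0.27 and 0.15. Cox7b was the lowest of the complex at 7 DAI, with -0.53, and the highest at 11 DAI, with 0.42. Cox5a was the one complex IV subunit above its 0 DAI signal at 7 DAI, with a ratio of 0.16. Cox5b was the lowest at 21 DAI by its brightest probe, with -0.37, while a second probe gave 0.08. Ndufa4 had ratios of 0.29, -0.12, 0.11 and 0.10.

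**Figure D5:**
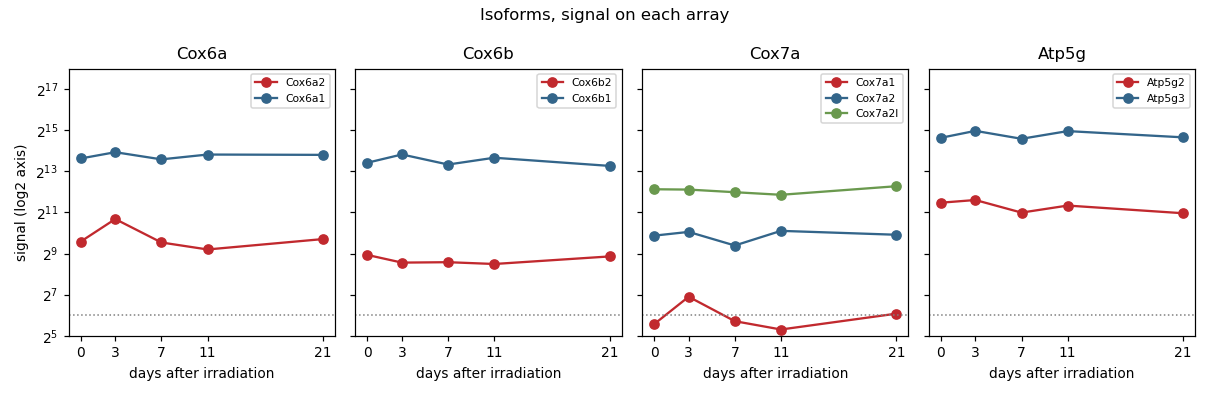
Signals of isoform families are drawn against days after irradiation on a log2 axis, with 1 array per time and a dotted line at the floor of 64. Heights of different probes cannot be compared. Cox6a2 and Cox7a1 peak at 3 DAI, at 1639 and 119, while Cox6b2 is lower at 3 DAI (377) than at 0 DAI (488).

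Complex V, the ATP synthase, had all 16 subunits above the floor on all arrays and the smallest median difference of the complexes from all genes at 3 DAI, at 0.08. Atp5o, a stalk subunit that joins the catalytic head to the membrane part, was the highest at 3 DAI, with signals of 8560, 12014, 9839, 11927 and 9230. Atp5d, a subunit of the central stalk, was the highest at 11 DAI, with a ratio of 0.52, and had -0.31 at 21 DAI. Atp5b, the catalytic beta subunit, had signals of 28849, 32487, 25249, 34121 and 30808, so its lowest array was 7 DAI.

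Of the genes for the c ring, which turns as protons pass, Atp5g2 and Atp5g3 were measured. Atp5g2 had signals of 2843, 3114, 2036, 2582 and 1993 and was the lowest of the complex at 11 and 21 DAI, with ratios of -0.14 and -0.51. Atp5g3, which encodes the same mature protein, had signals of 25350, 32075, 24545, 31809 and 25775 and ratios of 0.33 at 11 DAI and 0.02 at 21 DAI. Atp5md, a small membrane subunit, was low on 1 array, with signals of 323, 329, 188, 343 and 301. Atp5e, the epsilon subunit, was the lowest at 3 DAI, with a ratio of -0.17. Atp5k, a membrane subunit near the floor, was the highest at 7 and 21 DAI by its brightest probe, with 0.37 and 0.45, but its other probe gave -0.63 and -0.51. Probes of Atp5a1, the alpha subunit, also differed, as the brightest gave -0.44 and 0.02 at 7 and 21 DAI and the other -2.04 and -1.50. No gene of the set had probes called 2-fold in opposite directions.

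The 11 measured assembly factors among these genes had a median log2 ratio of 0.41 at 11 DAI, and 10 of them lay above the median of all genes. Ndufaf7, a methyltransferase needed to build complex I, had signals of 140, 168, 251, 377 and 258. It was 2.69-fold higher at 11 DAI than at 0 DAI, and the 7 and 21 DAI arrays lay between. Its other 2 probes were under the floor on all arrays. Ndufaf4 had signals of 801, 1299, 732, 1511 and 683, with 3 and 11 DAI high, but its second probe gave -0.86 at 3 DAI and 0.79 at 11 DAI. Ndufaf5 had ratios of 0.61 at 3 DAI and 0.88 at 11 DAI. Ndufaf3 was low on all irradiated arrays, with signals of 152, 119, 85.3, 100.2 and 111.

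Of the 13 subunits encoded by mitochondrial DNA, 8 had a named probe, and all 8 were above the floor. Their median log2 ratios were -0.11, -0.71, -0.29 and -0.36 at 3, 7, 11 and 21 DAI, and none of the 8 lay above the median of all genes at 7 DAI. At that time 2 of the 8 were 2-fold lower, against 3.4% of all genes, and 0 were higher, against 4.09%. ND4L, a membrane subunit of complex I, had signals of 1150, 1711, 508, 1071 and 1095, with 7 DAI the low array and 3 DAI the high one. COX2, which takes electrons from cytochrome c in complex IV, had signals of 17962, 14062, 8459, 14206 and 11072, all irradiated arrays below 0 DAI and 7 DAI the lowest.

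ND4, a proton-pumping subunit of complex I, had signals of 34613, 33237, 18874, 26124 and 26371, and ATP6, of the proton channel of complex V, had a ratio of -0.85 at 7 DAI. ND1 had -0.56 there. CYTB, the cytochrome b of complex III, was nearly flat near the top of the scale, with signals of 46510, 41130, 41270, 45490 and 43660. ND6, the one subunit encoded on the other strand of mitochondrial DNA, had ratios of 0.67, -0.13, 0.72 and 0.64, and ND5 had -0.05, -0.15, -0.46 and -0.48. At 3, 11 and 21 DAI, 2, 1 and 1 of the 8 lay above the median of all genes.

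Genes that feed, build or regulate the chain were described for comparison. Assembly factors with other names, 22 of them measured, gave medians of 0.39 (3 DAI), 0.02 (7 DAI), 0.65 (11 DAI) and 0.26 (21 DAI), and 20 of 22 lay above the median of all genes at 11 DAI. Of these 22, 1 was 2-fold higher at 3 DAI, against 5.56% of all genes. It was Acad9, needed to build complex I, with a ratio of 1.05. The 14 measured genes of the tricarboxylic acid cycle and pyruvate dehydrogenase, which supply NADH and succinate, had medians of 0.33, -0.11, 0.26 and 0.07, and none was 2-fold different at any time. At 7 DAI 3 of the 13 with a ratio lay above the median of all genes.

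The 9 electron carriers and feeders had medians of 0.52, 0.21, 0.40 and 0.27. Cyc1, the heme subunit of complex III that bears another prefix, had signals of 1905, 3329, 2410, 3424 and 2452, all irradiated arrays above 0 DAI. Sqor, which feeds electrons from sulfide to ubiquinone, was the one 2-fold difference in that list, with a ratio of -1.08 at 11 DAI. Of all genes, 5.21% were 2-fold lower then. Of 12 regulators of mitochondrial biogenesis, Ppargc1b, a coactivator, was 2-fold higher at 3 DAI (1.02), and Pprc1, a related coactivator, at 11 DAI (1.71). Of all genes, 5.56% and 6% were 2-fold higher at these times. Pprc1 had signals of 324, 482, 587, 1062 and 418, so 11 DAI stood apart. Ppargc1a was under the floor on all arrays. The summed signal of megakaryocyte markers was high and low on the same arrays as the subunits. It was 2392, 9225, 514, 5385 and 2643 at 0, 3, 7, 11 and 21 DAI. Not every marker followed this order, as Gp9 had a log2 ratio of -0.16 at 11 DAI. The median log2 ratios of T and NK cell markers had the same order, with 0.76, -0.78, 0.10 and -0.41 at 3, 7, 11 and 21 DAI. At 3 DAI that median covers 4 genes, of which 3 lay above the median of all genes. The other, Prf1, had a log2 ratio of -2.355 there. The summed signal of T and NK cell markers did not have this order. It was 23847, 14399, 9926, 18308 and 17726 at 0, 3, 7, 11 and 21 DAI. The part of megakaryocyte and of T and NK cell markers in the subunit values was not tested.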

How the data were processed

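RNA of total bone marrow was copied from an oligo(dT) primer, labelled with biotin and measured on MouseWG-6 BeadChips of Illumina, with 1 array per time. The deposited intensity values were background-subtracted and average-normalized by the authors in GenomeStudio 2010.2, on a linear scale, and were used without further scaling. Another table, with 10 columns of raw signals and detection p-values, names its columns in a way that matches no sample and was left out. Hence a fixed floor of 64 was set. Probes were named from the platform annotation, and 34885 had 1 symbol. For each gene, member or not, the probe that was brightest on average over the 5 arrays was taken. The size rules were 2-fold and 1.5-fold.

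Genes named in the text are all members called 2-fold at any time, the highest and lowest of each complex at each time, the isoform families, the Sdh subunits and members under the floor. Ndufa5, Ndufa9, Ndufaf3, Ndufaf4, Ndufaf5, Uqcrc1, Atp5b, Atp5h and Atp5a1, and the genes of the comparison lists, were added after their values were seen. Subunits encoded by mitochondrial DNA were matched by Entrez identifier to RefSeq. The members and lists were chosen with earlier results of these data known. Alternatives were a floor of 100, a pseudocount of 50 without a floor, quantile normalization, scaling to a common median, the mean over probes, other size rules, subunits alone, leaving out members among the brightest 1% of probes, another baseline and, added after the data were seen, genes with a mean signal of 1000 or more. The ratio step was run on simulated arrays with known changes above 2-fold in genes well above the floor. Smaller shifts, such as most of those described here, were not simulated. Computation used numpy 2.4.6 and pandas 2.3.3 under Python 3.11.15, and figures matplotlib 3.10.9.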

Additional observations from a re-analysis of the deposited data

How the results depend on the processing

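No paired analysis was possible because each time has 1 array, and no array can be left out of a group. With a size rule of 1.5-fold, the counts of members higher were 5, 1, 8 and 1 at 3, 7, 11 and 21 DAI, in place of 1, 0, 1 and 0, and those lower at 7, 11 and 21 DAI were 7, 2 and 3, in place of 1, 0 and 0. Median scaling took the count higher at 3 DAI to 0 and the count lower at 21 DAI to 1, which was Ndufb11. The count lower at 7 DAI became 0 with a floor of 100, a pseudocount of 50, the mean over probes and a baseline made of the other 3 irradiated arrays. The count higher at 11 DAI became 0 with the mean over probes, with that baseline and with subunits only, since Ndufaf7 is an assembly factor. Over all alternatives, the subunit median relative to all genes ranged from 0.14 to 0.23 at 3 DAI, -0.25 to -0.11 at 7 DAI, 0.06 to 0.17 at 11 DAI and -0.13 to 0.02 at 21 DAI. The ends at -0.105 and 0.017 came with the pseudocount, which also gives a ratio to genes near background. With genes of a mean signal of 1000 or more alone, an alternative chosen after the data were seen, it was 0.20, -0.21, 0.16 and -0.10. With 1 array per time, array and time cannot be told apart.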
